A study of Homo sapiens with 32 samples.

Results

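The genes described here encode enzymes that add methyl groups to lysines or remove them, most of them acting on histones. They are the genes whose symbols begin with KMT, KDM or SETD followed by a digit, with KDM5D left out by the rule. The rule was met by 35 of the 18854 genes with a transcript among the deposited values, and 34 of these passed the filter on low counts. KDM4E failed it, with reads in 1 of 8 libraries of each genotype and treatment, and KDM4F had no matched transcript. The cells were 4 established cancer lines of human origin, and their RNA was sequenced: A375 (melanoma), Cal51 and MDA-MB-231 (both breast cancer) and DLD1 (colorectal cancer). Each line was used as cells labelled G579S, which the design text calls resistant to CDK11 inhibition, and as cells labelled wild-type, which it calls sensitive. Cells received OTS964, a small-molecule inhibitor of the transcription and splicing kinase CDK11, at 100 nM, or the solvent DMSO (0 nM), for 6 h. This gave 16 groups of 2 libraries and 32 libraries in all. The labels do not say which CDK11 gene carries the change, whether a G579S line is 1 clone, or whether paired libraries stem from different cultures. For tests within a line or between lines, each p-value thus reflects spread between paired libraries that could be technical alone. In the tests of a response across the 4 lines, differences in that response between lines also enter the spread.

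As background, methylation of histone H3 at lysine 4 marks promoters and enhancers, methylation at lysine 36 follows elongating RNA polymerase, and methylation at lysines 9 and 27 is linked to silencing. KMT enzymes and most SETD enzymes carry a SET domain that transfers the methyl group from S-adenosylmethionine. KDM1 enzymes remove methyl groups as flavin-dependent oxidases, whereas the other KDM enzymes use a Jumonji C (JmjC) domain with iron and oxoglutarate.

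A library held between 16091376 and 29742687 estimated reads, and no library was identical to another. Levels below are edgeR's CPM, that is counts divided by the library size and its TMM scaling factor, unless TPM is named. The TPM values are scaled to transcript length and library total and carry no TMM factor. The libraries labelled DLD1 wild-type went against their label in several markers, though not in all. They held SOX10, a melanocyte gene, at 241 to 737 CPM, against 0.112 to 1.63 CPM in the DLD1 G579S libraries. Their CDX2, a colorectal gene, lay between 2.84 and 12.8 CPM, against 96.1 to 145 CPM in the DLD1 G579S libraries. Their VIM, a mesenchymal gene, lay between 3480 and 6380 CPM, against 7.26 to 8.17 CPM in the DLD1 G579S libraries. Summed over 12 melanocyte genes they held 817.1 to 1259 CPM, against 87.58 to 97.94 CPM, and over the colorectal list 726.7 to 1220 CPM, against 10450 to 14760 CPM. They had GPA33 at 0, but also the melanocyte genes TYR and DCT at 0, 8 of the 13 colorectal genes detected (2 in A375), and CDX2 and EPCAM (15.6 to 49.2 CPM) above A375, where CDX2 was at 0 and EPCAM at most 0.167 CPM. CDX1 was at 0 under both DLD1 labels. In A375 the melanocyte list summed to 460.8 to 1707 CPM, with MLANA at 0 in all its groups. TYR was also at 0 in each A375 group but G579S OTS964, and DCT in both A375 OTS964 groups. Over 8 breast epithelial genes Cal51 held 296.2 to 899.3 CPM and MDA-MB-231 682.1 to 2922 CPM, with ESR1 at 0 in all lines. DLD1 G579S held 1249 to 1791 CPM of the same genes, so this list did not set the breast lines apart. The DLD1 wild-type label is kept as a label only, and where leaving out those libraries ended a call across the lines, the adjusted p without them is given. The pairs of Cal51 G579S DMSO, MDA-MB-231 wild-type OTS964 and DLD1-labelled wild-type OTS964 stood further apart than the others, with a chi-square per degree of freedom of 86.9, 85.7 and 47.8, against at most 25.4. In Cal51 G579S DMSO the second library had 4.28 CPM of KMT2A and 6.48 CPM of KMT2B, against 61.0 and 61.8 CPM in the first. Reads of near-identical copies (KMT2C and KMT5A have pseudogenes, and KDM4D and KDM4E are close paralogs) and of the overlapping antisense gene at KDM4A could be split between them by the counting. In such bulk samples, fewer cells of a type and less RNA per cell cannot be told apart.

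In wild-type cells most of these genes were lower with OTS964. Across the 4 lines, 25 of 34 were lower with OTS964 than with DMSO and 2 were higher at an adjusted p under 0.05 (edgeR's quasi-likelihood test, Benjamini-Hochberg adjustment over all 14318 genes tested), where 31.8% of all genes tested were lower and 27.1% higher. A fall of 2-fold or more was called for 21 of them, against 22.6% of all genes. The median log2 fold change was -1.08 over the 34 genes and -0.11 over all genes tested. Of the 27 genes called either way (58.8% of all genes were), 26 had the same sign in each of the 4 lines. The exception was KMT2A. How often the other called genes kept their sign in all 4 lines was not computed. When the DLD1-labelled libraries were left out 21 genes were called lower, and 20 of these were among the 25. With library totals in place of TMM factors the median of all genes moved by -0.55 on the log2 scale and 30 members were lower and 0 higher.

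**Figure D1:**
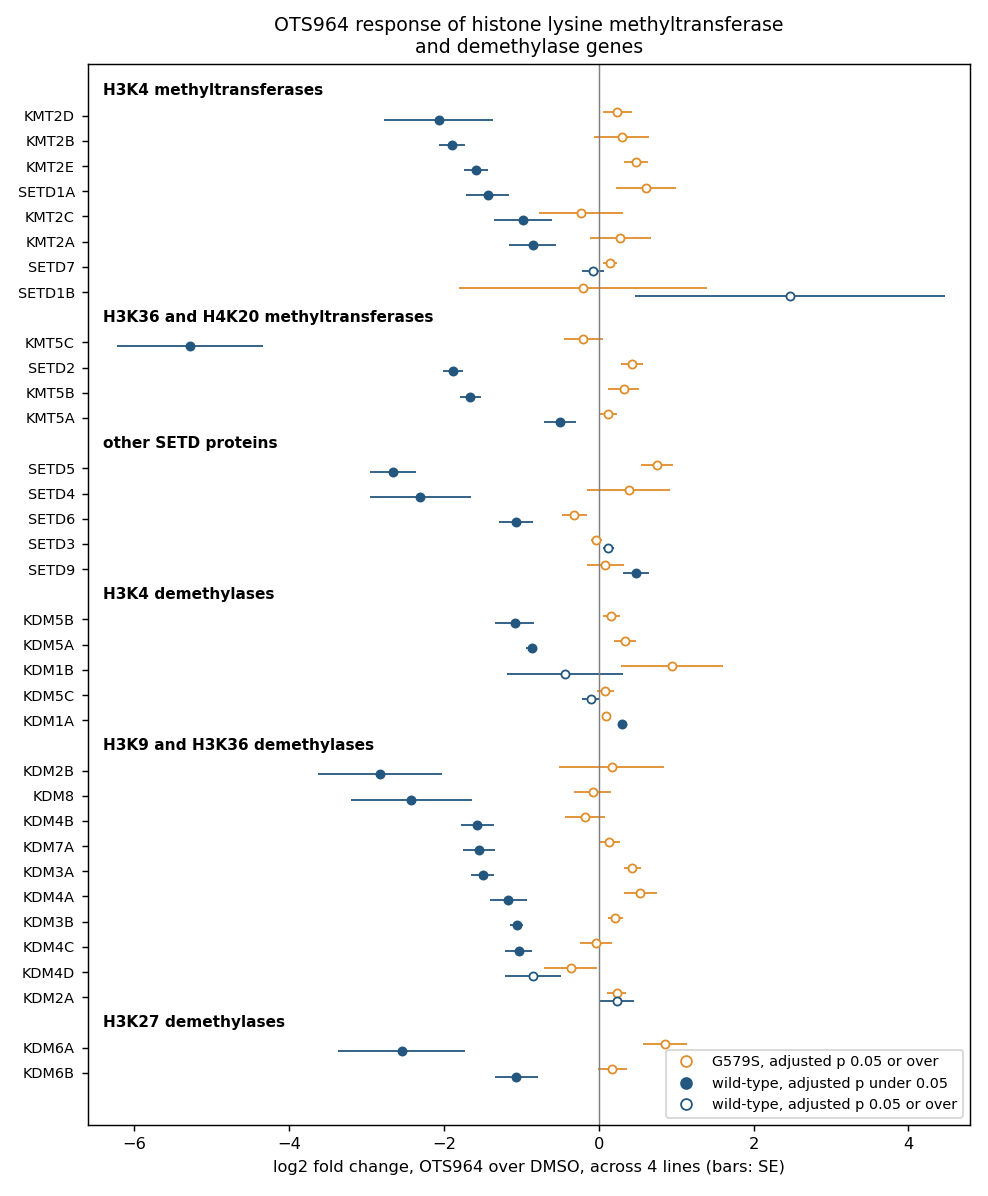
Log2 fold change of OTS964 over DMSO (x axis) for each of the 34 genes tested (y axis, by role), across lines in G579S cells (orange) and in wild-type cells (blue), with bars for the standard error. Filled points passed an adjusted p of 0.05. The blue points lie left of 0 for 25 genes called lower, while no orange point passed.

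The genes grouped as methyltransferases of lysine 4 of histone H3, with KMT2E included by its KMT2 name, were mostly lower with OTS964 in wild-type cells. Of these, 6 of 8 were called lower and 0 higher (31.8% and 27.1% of all genes, as for each role below). Their summed TPM was 27.4 ± 8.61 with OTS964 and 83.8 ± 16.2 with DMSO (SD, n = 8). On the CPM scale of the tests the sums lay closer, at 246 ± 42.6 with OTS964 and 468 ± 55.4 with DMSO. KMT2B, a catalytic subunit of a promoter-bound COMPASS-like complex, had 13.8, 18.2 and 41.6 CPM (lowest, median and highest of 8) with OTS964 and 63.6, 79.3 and 93.1 CPM with DMSO. Each OTS964 library lay below every DMSO library, and the log2 fold change was -1.89 ± 0.16 (SE, adjusted p = 1.67e-07). KMT2D, which monomethylates lysine 4 at enhancers, had 0, 24.8 and 47.5 CPM with OTS964 and 46.4, 102 and 129 CPM with DMSO. It was listed at 0 in 2 of the 8 OTS964 libraries, the ranges of the treatments overlapped at their edges, and the log2 fold change was -2.07 ± 0.70 (adjusted p = 0.0204, and 0.0628 when the DLD1-labelled libraries were left out).

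KMT2E, a SET-domain protein that binds methylated lysine 4, fell without overlap, with 9.35, 15.4 and 27.4 CPM under OTS964 and 34.3, 51.6 and 70.3 CPM under DMSO (log2 fold change -1.59 ± 0.15, adjusted p = 5.54e-07). SETD1A, the catalytic subunit of a SET1 complex, fell by 1.43 on the log2 scale (SE 0.28, adjusted p = 0.000423). KMT2C, the enhancer paralog of KMT2D, and KMT2A (MLL1) changed less, by -0.98 ± 0.38 (adjusted p = 0.0385) and -0.85 ± 0.30 (adjusted p = 0.0242). Neither call was stable. KMT2C lost it in 10 of the 16 fits that left out 1 library, and KMT2A had an adjusted p of 0.295 on curated transcripts alone. Leaving out the DLD1-labelled libraries gave an adjusted p of 0.153 for KMT2C and 0.0771 for KMT2A. SETD7, a monomethyltransferase with many non-histone substrates, had the highest TPM of the group under DMSO and did not pass in either direction. It had 26.4, 105 and 200 CPM (199.5 before rounding) with OTS964 and 46.2, 94.9 and 156 CPM with DMSO, and the ranges overlapped fully (log2 fold change -0.07 ± 0.14, adjusted p = 0.688). SETD1B, the paralog of SETD1A, was listed at 0 in 5 of 8 OTS964 and 6 of 8 DMSO libraries, and its log2 fold change of 2.46 ± 2.00 did not pass (adjusted p = 0.316).

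All 4 enzymes for lysine 36 of H3 and lysine 20 of H4 were lower with OTS964 in wild-type cells, and their summed TPM was 26.4 ± 8.78 with OTS964 and 86.5 ± 10.1 with DMSO (SD, n = 8). Their summed CPM was 88.9 ± 25.4 with OTS964 and 199.6 ± 18.7 with DMSO. SETD2, which travels with elongating RNA polymerase and trimethylates lysine 36, had 12.4, 22.5 and 41.2 CPM with OTS964 and 69.9, 81.2 and 119 CPM with DMSO. Each OTS964 library lay below each DMSO library, and the log2 fold change was -1.88 ± 0.13 (adjusted p = 2.84e-08), the smallest adjusted p of the 34 genes. KMT5C, which trimethylates lysine 20 of H4, had 0, 0 and 1.83 CPM with OTS964 and 4.13, 7.91 and 14.7 CPM with DMSO. It was listed at 0 in 5 of the 8 OTS964 libraries, including both of A375 and both of those labelled DLD1 wild-type. From a floor of 3 counts per library it was at least 36.9-fold lower in A375 and at least 28.1-fold lower in the libraries labelled DLD1 wild-type. Its fitted log2 fold change across lines was -5.28 ± 0.94 (adjusted p = 0.000208), a value that depends on edgeR's prior count. KMT5A, which places the first methyl group on lysine 20 and had the highest TPM of the group, had 24.6, 51.5 and 93.3 CPM with OTS964 and 42.7, 76.2 and 100.3 CPM with DMSO. These ranges overlapped, the log2 fold change was -0.51 ± 0.21 (adjusted p = 0.048), and the call was lost in 11 of 16 fits without 1 library and when the DLD1-labelled libraries were left out (adjusted p = 0.0854).

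KMT5B, the paralog of KMT5C, had 6.55, 7.96 and 11.5 CPM with OTS964 and 18.5, 26.3 and 40.6 CPM with DMSO in wild-type cells, again without overlap (log2 fold change -1.66 ± 0.14, adjusted p = 1.29e-07). A pair of its curated transcripts, matched to GENCODE by the RefSeq identifiers, is shown because the long one was at 0 with OTS964 and the short one was not, as described further on. Both hold chr11:68166982-68167041 (GRCh38, minus strand), the last 60 bases before a splice site. The short transcript reads on into the following intron of 7810 bases and meets a stop codon after 5 more coding bases, whereas the long one is spliced to the next exon. Sequences run 5′ to 3′ on the transcript strand, with the shared bases in lower case and the bases of each transcript alone in capitals (chr11:68166974-68166981 for the short and chr11:68159142-68159171 for the long).
KMT5B short transcript: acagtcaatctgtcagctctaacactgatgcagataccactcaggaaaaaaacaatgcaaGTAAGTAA
KMT5B long transcript: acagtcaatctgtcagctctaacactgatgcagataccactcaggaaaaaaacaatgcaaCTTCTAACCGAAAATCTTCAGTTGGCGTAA
The capitals of the short transcript hold the stop codon TAA at their end. The short transcript has 1179 coding bases and the long one 2655.

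**Figure D2:**
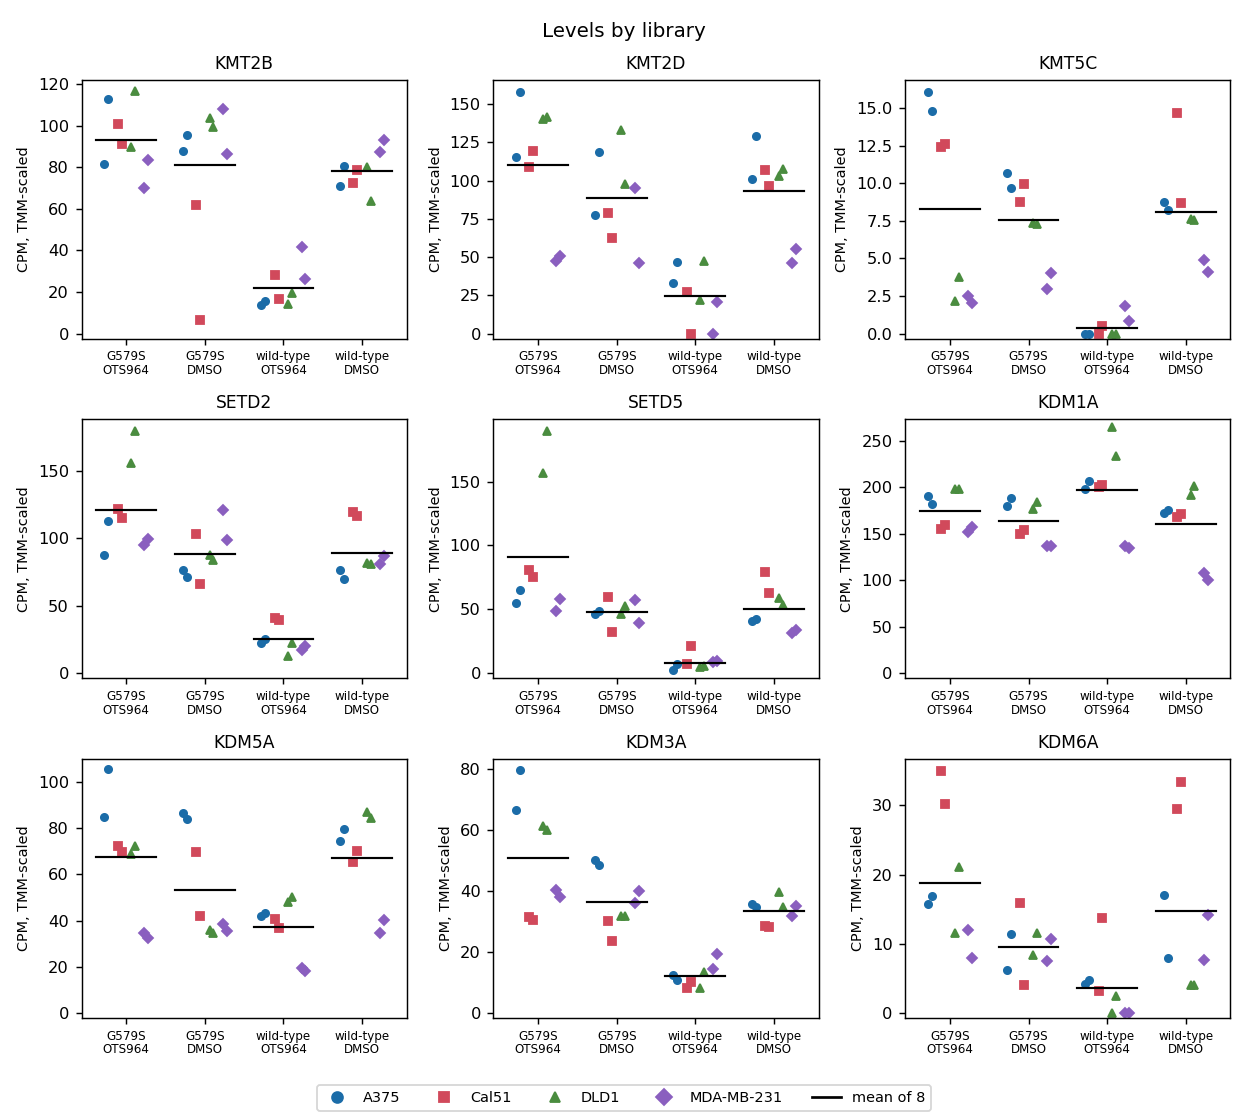
Level in each library (points, CPM scaled by TMM) of 9 genes, by genotype and treatment (x axis), with the mean of 8 libraries as a line and the labelled lines as symbols. In wild-type cells KMT2B, KMT5C, SETD2, SETD5 and KDM3A do not overlap between OTS964 and DMSO, and KDM1A is higher with OTS964 in each line on this scale, its log2 fold change being -0.25 with library totals.

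Among the other SETD proteins 3 of 5 were lower and 1 was higher with OTS964 in wild-type cells. SETD5, a chromatin protein that acts with histone deacetylase complexes, had 2.18, 7.28 and 21.5 CPM with OTS964 and 31.7, 47.7 and 79.5 CPM with DMSO. The treatments did not overlap, and the log2 fold change was -2.66 ± 0.30 (adjusted p = 2.48e-06). SETD4 had 0, 1.39 and 4.24 CPM with OTS964 and 1.07, 5.91 and 6.81 CPM with DMSO, which overlapped across lines but were apart within each one (log2 fold change -2.30 ± 0.66, adjusted p = 0.00738). SETD6, which methylates the NF-kB subunit RelA, fell by 1.07 on the log2 scale (SE 0.22, adjusted p = 0.000788). SETD3, an actin histidine methyltransferase with the highest TPM of the group, had 52.0, 70.4 and 123 CPM with OTS964 and 50.3, 66.8 and 91.5 CPM with DMSO, and did not pass (log2 fold change 0.12 ± 0.07, adjusted p = 0.164).

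SETD9 was higher in CPM with OTS964, with 3.71, 5.88 and 12.2 CPM against 2.59, 4.44 and 8.18 CPM with DMSO. The ranges overlapped, the log2 fold change was 0.48 ± 0.16 (adjusted p = 0.0197), and with library totals in place of TMM it was -0.07. The call was also lost when the DLD1-labelled libraries were left out (adjusted p = 0.0637), with a replicate block (0.053) and on curated transcripts alone (0.108). In TPM SETD9 averaged 6.46 ± 2.01 with OTS964 and 7.78 ± 2.39 with DMSO (SD, n = 8).

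Of the demethylases of lysine 4 of H3, 2 of 5 were lower and 1 was higher with OTS964 in wild-type cells. Over all genes 31.8% were lower and 27.1% higher. KDM5B, a JmjC demethylase of trimethylated lysine 4, had 12.8, 33.3 and 68.1 CPM with OTS964 and 51.4, 72.5 and 103 CPM with DMSO (log2 fold change -1.09 ± 0.25, adjusted p = 0.00185). Its paralog KDM5A had 18.1, 41.3 and 50.4 CPM with OTS964 and 34.6, 72.5 and 87.0 CPM with DMSO (log2 fold change -0.87 ± 0.07, adjusted p = 7.26e-08). For both genes the ranges over all lines overlapped while the 2 treatments were apart within each line. The X-linked paralog KDM5C did not pass (log2 fold change -0.10 ± 0.11, adjusted p = 0.478). KDM1B (LSD2), a flavin-dependent oxidase of few reads with at most 2.27 CPM in wild-type cells, did not pass either (log2 fold change -0.43 ± 0.75, adjusted p = 0.647).

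KDM1A (LSD1), the oxidase of the CoREST corepressor and the group's highest gene in TPM, stood apart from the 25 genes that fell, though its direction depended on the scale. It had 135, 201 and 265 CPM with OTS964 and 100.0, 171 and 201 CPM with DMSO, and within each line both OTS964 libraries were above both DMSO libraries. The log2 fold change was 0.30 ± 0.05 (adjusted p = 0.000122), and with library totals in place of TMM it was -0.25 (adjusted p = 0.00112). In TPM KDM1A averaged 65.1 ± 11.3 with OTS964 and 93.2 ± 18.8 with DMSO (SD, n = 8).

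Of the 10 tested demethylases of lysines 9 and 36, 8 were lower and 0 higher with OTS964 in wild-type cells, and the summed TPM of the group was 47.5 ± 13.2 with OTS964 and 123 ± 17.8 with DMSO (SD, n = 8). In CPM the sum was 269 ± 73.8 with OTS964 and 398 ± 43.9 with DMSO. KDM2B, which binds unmethylated CpG sites and recruits a Polycomb complex, had 0, 1.14 and 9.65 CPM with OTS964 and 2.49, 8.37 and 17.9 CPM with DMSO. The ranges overlapped, and the fitted log2 fold change across lines was -2.82 ± 0.80 (adjusted p = 0.00731). Both wild-type OTS964 libraries of MDA-MB-231 were listed at 0, at least 18.6-fold lower from a floor of 3 counts per library. In the G579S cells of that line KDM2B was listed at 0 and 112 reads with DMSO and at 0 and 51 reads with OTS964. A listed 0 thus also occurred there without the drug. KDM8, a JmjC protein, had 0, 1.06 and 2.11 CPM with OTS964 and 2.12, 4.67 and 6.29 CPM with DMSO. The groups were apart by a narrow margin (log2 fold change -2.42 ± 0.78, adjusted p = 0.0152, and 0.0579 with the DLD1-labelled libraries left out). KDM2A, the paralog of KDM2B and the highest of the group in TPM, had 91.9, 185 and 204 CPM with OTS964 and 97.4, 119 and 199 CPM with DMSO, and did not pass (log2 fold change 0.23 ± 0.22, adjusted p = 0.395).

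Both KDM3 genes and 3 of the 4 tested KDM4 genes were lower. KDM3A, a demethylase of mono- and dimethylated lysine 9, had 8.03, 11.7 and 19.3 CPM with OTS964 and 28.2, 34.8 and 39.5 CPM with DMSO, without overlap (log2 fold change -1.499 ± 0.15, adjusted p = 5.86e-07). KDM3B fell by 1.06 (SE 0.08, adjusted p = 6.18e-08). KDM4A, KDM4B and KDM4C, which act on trimethylated lysines 9 and 36, fell by 1.17, 1.57 and 1.03 on the log2 scale (adjusted p = 0.000648, 1.81e-05 and 0.000121). KDM4B had an adjusted p of 0.323 when curated transcripts alone were summed. KDM4D was lower in value in each line but did not pass (-0.85 ± 0.36, adjusted p = 0.0546). KDM7A, which acts on lysines 9 and 27, was apart between treatments, with at most 3.10 CPM under OTS964 and at least 5.04 CPM under DMSO (log2 fold change -1.54 ± 0.20, adjusted p = 1.2e-05).

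Both demethylases of lysine 27 were lower with OTS964 in wild-type cells. KDM6A (UTX), a subunit of the KMT2C and KMT2D complexes, had 0, 2.77 and 13.7 CPM with OTS964 and 4.01, 11.0 and 33.4 CPM with DMSO. The ranges overlapped, with 3.11 and 13.7 CPM in the Cal51 OTS964 libraries and 4.15 and 4.81 CPM in those of A375. MDA-MB-231 was listed at 0 in both OTS964 libraries, at least 63.7-fold lower from a floor of 3 counts per library. The fitted log2 fold change across lines was -2.54 ± 0.82 (adjusted p = 0.0152). KDM6B (JMJD3), an inducible enzyme and the higher of the pair in TPM, had 2.69, 10.3 and 24.5 CPM with OTS964 and 7.43, 19.5 and 41.2 CPM with DMSO, with overlap (log2 fold change -1.06 ± 0.27, adjusted p = 0.00371).

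Within each wild-type line the 34 genes moved in the same direction for the most part. In A375, 15 were lower and 2 higher, against 25% and 20.8% of all genes. In Cal51, 16 were lower and 2 higher, against 27.8% and 24.9%. In the libraries labelled DLD1 wild-type, 17 were lower and 1 higher, against 27.7% and 22.2%. In MDA-MB-231, 18 were lower and 1 higher, against 22.4% and 24.1%. On this scale KDM1A was among the genes called higher in each line, and KDM2A was the other in A375 and Cal51.

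Called lower in all 4 wild-type lines were 10 genes: KMT5C, SETD2, KMT5B, KDM5A, KMT2B, KMT2E, KDM7A, KDM3A, KDM3B and SETD5. The share of all genes tested that were called lower in all 4 lines was not computed. SETD2 had log2 fold changes of -1.62 ± 0.21 in A375, -1.55 ± 0.21 in Cal51, -2.20 ± 0.22 in the DLD1-labelled libraries and -2.15 ± 0.21 in MDA-MB-231 (adjusted p = 3.33e-06, 3.03e-06, 7.22e-08 and 1.68e-07). SETD5 had -3.15, -2.30, -3.42 and -1.83 in the same order, with standard errors between 0.40 and 0.44. KDM3A had -1.59, -1.63, -1.80 and -0.99. For SETD5 and KDM3A the value nearest 0 was that of MDA-MB-231, though the F test between lines described next did not pass for either gene.

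The response differed between the wild-type lines for 8 of 34 genes (F test over the interaction of line and treatment). That share, 23.5%, was no higher than the 26.7% over all genes. KMT5C (adjusted p = 0.000114) was at 0 and 0 CPM with OTS964 and 8.74 and 8.23 CPM with DMSO in A375. In MDA-MB-231 it kept 1.83 and 0.817 CPM with OTS964, against 4.88 and 4.13 CPM with DMSO. KDM2A (adjusted p = 0.00196) turned direction between lines on this scale. It had 198 and 182 CPM with OTS964 and 119 and 128 CPM with DMSO in A375 (log2 fold change 0.62 ± 0.24, adjusted p = 0.0381), and 204 and 187 CPM against 97.4 and 119 CPM in Cal51 (0.86 ± 0.24, adjusted p = 0.00465). In MDA-MB-231 it had 91.9 and 93.6 CPM with OTS964 and 152 and 199 CPM with DMSO (-0.92 ± 0.24, adjusted p = 0.00319).

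KDM5B (adjusted p = 0.00587) changed most in MDA-MB-231, where it had 12.8 and 13.3 CPM with OTS964 and 57.8 and 63.4 CPM with DMSO. In A375 it had 58.5 and 68.1 CPM with OTS964 and 84.0 and 81.6 CPM with DMSO, which did not pass (-0.39 ± 0.27, adjusted p = 0.268). SETD7 (adjusted p = 0.00641) passed in Cal51, with 26.4 and 30.9 CPM with OTS964 and 46.2 and 56.6 CPM with DMSO, while in the other lines its log2 fold changes were positive and did not pass. SETD6 (adjusted p = 0.0112) fell in A375, Cal51 and the libraries labelled DLD1 wild-type. In MDA-MB-231, the line with the lowest SETD6 under DMSO, it had 6.10 and 5.90 CPM with OTS964 and 4.68 and 7.67 CPM with DMSO. KDM6A (adjusted p = 0.0126), KMT5A (0.0173) and KDM4B (0.0272) were the others, KMT5A being called in MDA-MB-231 and KDM4B in each line but that one.

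**Figure D3:**
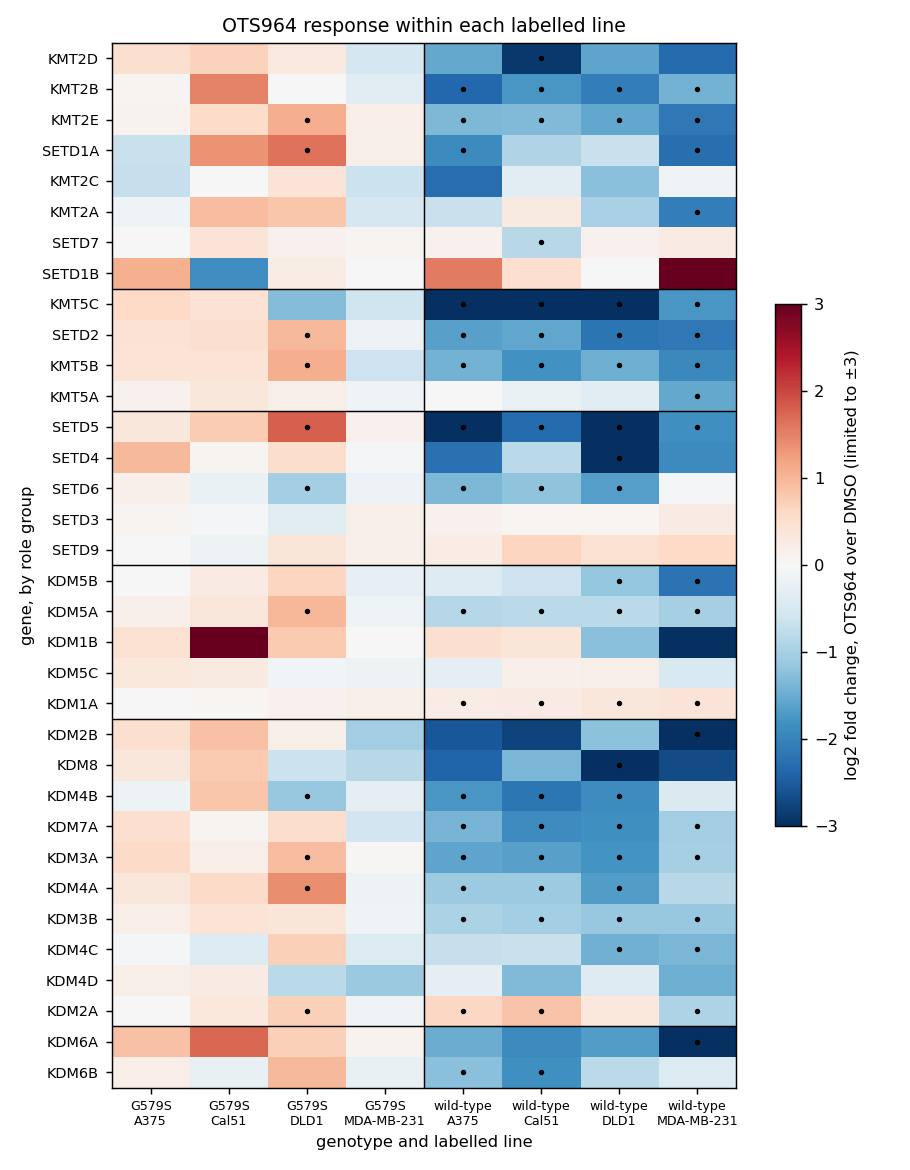
Log2 fold change of OTS964 over DMSO (colour, limited to ±3) for the 34 genes (rows, by role) within each labelled line, G579S columns left and wild-type columns right; a dot marks an adjusted p under 0.05. Blue cells with dots mark 15 to 18 of the 34 genes in each wild-type column, and among the G579S columns dots appear for DLD1 alone.

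In G579S cells 0 of 34 genes passed across lines by edgeR, where 2.43% of all genes did. At an unadjusted p under 0.05 there were 9 (22% of all genes), and DESeq2 called 6, all higher (12.4% of all genes either way). The median log2 fold change of the 34 was 0.17, against -0.01 over all genes. The summed TPM of the H3 lysine 4 methyltransferases was 95.1 ± 21.5 with OTS964 and 90.2 ± 33.2 with DMSO in these cells, and that of the lysine 36 and lysine 20 enzymes 87.6 ± 21.7 with OTS964 and 82.0 ± 22.9 with DMSO (SD, n = 8). In CPM the lysine 4 enzymes summed to 585 ± 151 with OTS964 and 501 ± 161 with DMSO, and the lysine 36 and 20 enzymes to 244 ± 73.1 with OTS964 and 194 ± 37.4 with DMSO. KDM3A came closest, with 30.3, 50.1 and 79.6 CPM with OTS964 and 23.5, 33.9 and 50.04 CPM with DMSO (log2 fold change 0.43 ± 0.11, adjusted p = 0.0536). SETD5 had 49.0, 70.3 and 189 CPM with OTS964 and 32.6, 47.7 and 59.5 CPM with DMSO (0.75 ± 0.21, adjusted p = 0.0673). Both pairs of ranges overlapped, and the highest SETD5 values came from the 2 DLD1 G579S OTS964 libraries. KMT2E, SETD2, KDM6A and KDM4A followed, with log2 fold changes of 0.48, 0.43, 0.86 and 0.54 and adjusted p of 0.0931, 0.0961, 0.105 and 0.149.

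Within single G579S lines edgeR called 0 of 34 genes in A375, Cal51 and MDA-MB-231, where 0.657%, 0.391% and 0.307% of all genes passed. Unadjusted p-values under 0.05 numbered 3, 9 and 3 there, and DESeq2 called 1, 0 and 0. Without the first Cal51 G579S DMSO library, which leaves the second, with little KMT2A and KMT2B, 9 were called higher in Cal51. In DLD1 G579S 9 genes were higher and 2 lower, against 10.8% and 12.7% of all genes. KDM5A had 68.7 and 72.4 CPM with OTS964 and 36.1 and 34.5 CPM with DMSO (log2 fold change 1.00 ± 0.16, adjusted p = 0.000124). KDM3A had 61.02 and 59.96 CPM with OTS964 and 31.7 and 31.7 CPM with DMSO (0.93 ± 0.18, adjusted p = 0.000936). The pairs were far apart for both genes.

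SETD2 had 156 and 180 CPM (179.9 before rounding) with OTS964 and 87.8 and 84.3 CPM with DMSO in DLD1 G579S (0.96 ± 0.20, adjusted p = 0.00175), and SETD5 had 156 and 189 CPM against 46.4 and 52.9 CPM (1.80 ± 0.39, adjusted p = 0.00211). KMT5B and KMT2E were also called higher, by 1.08 each (adjusted p = 0.00371 and 0.0041), as were KDM4A, KDM2A and SETD1A. SETD6 and KDM4B fell by 1.02 and 1.14 (adjusted p = 0.00638 and 0.0137). In a comparison added after the data were seen, the DLD1 G579S response differed from the mean of the other 3 G579S lines for 6 genes (12.1% of all genes). KDM5A (0.87 ± 0.18, adjusted p = 0.00322), KMT5B, KDM3A and SETD5 were higher, and KDM4B (-1.27 ± 0.37, adjusted p = 0.0285) and SETD6 lower. Leaving out either DLD1 G579S OTS964 library or either DLD1 G579S DMSO library left 1 or 2 of these calls.

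The responses of the 2 genotypes were set against each other in 1 fit. The difference, G579S minus wild-type, was positive and past the threshold for 23 of 34 genes and negative for 1, against 25.8% and 24.3% of all genes. It was 2.31 ± 0.20 for SETD2 (adjusted p = 5.97e-10), 1.93 ± 0.18 for KDM3A (3.58e-09), 1.27 ± 0.13 for KDM3B (1.15e-08), 2.07 ± 0.22 for KMT2E (2.49e-08), 3.40 ± 0.37 for SETD5 (3.44e-08) and 1.98 ± 0.25 for KMT5B (3.29e-07). The negative one was KDM1A, at -0.21 ± 0.06 (adjusted p = 0.00503). With library totals in place of TMM the counts were 27 and 0, and the median of all genes moved by 0.43. Without all libraries labelled DLD1 they were 20 and 1.

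Under DMSO the genotypes differed for few of the 34 genes, apart from the DLD1 labels. In A375, KDM7A was lower in G579S, with 3.76 and 3.38 CPM, against 7.44 and 7.18 CPM in wild-type (log2 difference -1.03 ± 0.21, adjusted p = 0.00299, 1 of 34 genes against 9.77% of all). In Cal51, 2 of 34 passed against 17% of all genes. KMT5A had 28.3 and 19.3 CPM in G579S and 58.4 and 42.7 CPM in wild-type (-1.09 ± 0.27, adjusted p = 0.00914), and KDM6B had 36.1 and 30.8 CPM in G579S and 16.2 and 7.43 CPM in wild-type (1.502 ± 0.43, adjusted p = 0.0206). Both Cal51 calls depended on the G579S DMSO pair that stood apart: 11 genes passed without its first library and 0 without its second. In MDA-MB-231, KDM1A had 137 and 136 CPM in G579S and 108 and 100.0 CPM in wild-type (0.39 ± 0.07, adjusted p = 0.000875, 1 of 34 against 7.3% of all). CDK11B stood at 605 to 880 CPM in MDA-MB-231 G579S libraries and 56.4 to 71.3 CPM in the wild-type ones, and its part in this result was not tested.

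Between DLD1 G579S and the libraries labelled DLD1 wild-type, 8 of 34 genes passed, against 49.2% of all genes. KDM7A had 56.6 and 55.5 CPM in DLD1 G579S and 11.9 and 7.87 CPM in those labelled wild-type (2.50 ± 0.22, adjusted p = 8.73e-09). SETD7, SETD3, KMT5B and KDM3B were also higher, by 0.86, 0.49, 0.85 and 0.45. KDM5A, KDM5B and KDM4C were lower, with log2 differences of -1.28, -1.70 and -1.40. Since these libraries carry the markers of different cells, genotype and cell of origin cannot be told apart here.

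The lines themselves differed in these genes. Among G579S cells under DMSO 20 of 34 genes differed between the 4 lines (F test over lines), against 78.8% of all genes. KDM7A gave the smallest adjusted p (3.77e-12), with 56.6 and 55.5 CPM in DLD1 and between 3.38 and 8.43 CPM in the other 6 libraries. SETD7 (1.59e-07) had 176 and 177 CPM in DLD1 and 167 and 154 CPM in MDA-MB-231, and 66.2 and 42.3 CPM in Cal51. KDM5A (6.89e-07) was at 86.7 and 84.1 CPM in A375 and at 36.1 and 34.5 CPM in DLD1. SETD6 (2.54e-06), KDM1A (1.39e-05) and SETD3 (2.38e-05) came next, SETD6 being high in DLD1 at 28.0 and 27.3 CPM and low in MDA-MB-231 at 7.21 and 5.38 CPM.

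**Figure D4:**
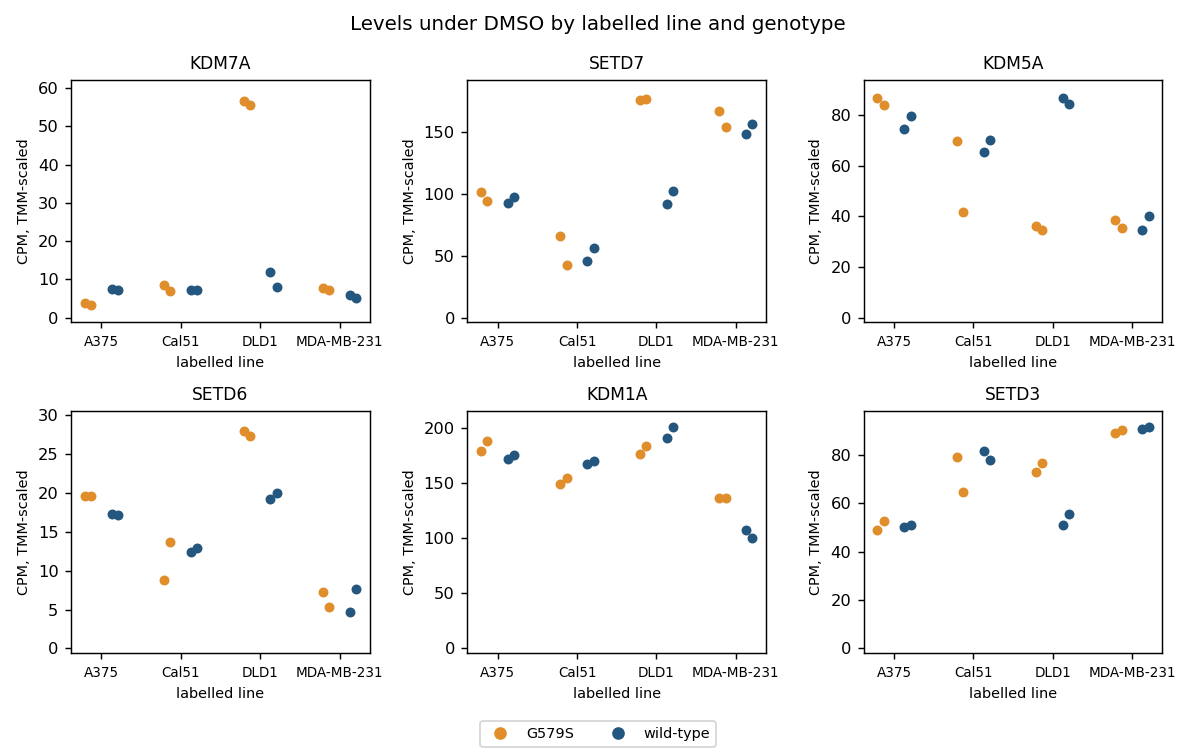
Level under DMSO (y axis, CPM scaled by TMM) of the 6 genes with the smallest adjusted p between lines, by labelled line, each point 1 library, G579S in orange and wild-type in blue. KDM7A is near 56 CPM in DLD1 G579S and under 12 CPM in each other library.

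Transcript usage changed with OTS964 in wild-type cells in 3 of the 17 genes with several matched transcripts (edgeR's diffSpliceDGE with the Simes method, against 6.09% of 6403 genes tested). They were KMT5B (adjusted p = 1.08e-07), KMT2A (0.00267) and SETD1A (0.0286). Of their single transcripts only those at or near 0 with OTS964 passed: XM_005274035.2 (7.98e-08) and the long NM_017635.3 (1.29e-06) of KMT5B, XM_006718839.1 of KMT2A (0.00311) and XM_006721106.1 of SETD1A (0.0235). Shares here and below are of reads on matched transcripts, so transcripts without a matched gene symbol are left out. Of KMT5B reads, the short transcript whose sequence is given above took 72.7% ± 9.64 with OTS964 and 37.0% ± 5.24 with DMSO (SD, n = 8), and its own relative usage did not pass (adjusted p = 0.643). The long one was at 0 in all 8 OTS964 libraries and took 22.9% ± 10.3 with DMSO. A predicted transcript, XM_005274035.2, was likewise at 0 in all 8 and took 28.8% ± 15.5 with DMSO. The level of the short transcript itself was 6.38 ± 1.47 CPM with OTS964 and 10.7 ± 3.92 CPM with DMSO, so its share was higher while its level was lower in value. In G579S cells the short transcript took 44.7% ± 12.7 with OTS964 and 36.9% ± 10.54 with DMSO, and the long one 14.1% with OTS964 and 15.9% with DMSO on average. The long one was at 0 in 1 of 8 G579S OTS964 and 2 of 8 G579S DMSO libraries. XM_005274035.2 was at 0 in 4 of 8 G579S OTS964 and 1 of 8 G579S DMSO libraries.

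In KMT2A the predicted transcript XM_006718839.1 took 1.44% ± 3.92 of reads with OTS964 and 30.2% ± 14.5 with DMSO, and the curated NM_005933.3 took 90.1% ± 23.7 with OTS964 and 69.8% ± 14.5 with DMSO. In SETD1A the predicted XM_006721106.1 was at 0 in all 8 OTS964 libraries and took 17.2% ± 19.5 with DMSO, where it was at 0 in 3 of 8, and the curated NM_014712.1 took 72.9% ± 23.1 with OTS964 and 51.7% ± 17.3 with DMSO. Reads are assigned to such overlapping transcripts by estimate, so a value of 0 is that estimate. KDM2A did not pass (adjusted p = 0.096). Its short transcript NM_001256405.1 had 133 ± 62.8 CPM with OTS964 and 68.9 ± 7.98 CPM with DMSO, and its long one NM_012308.2 had 21.4 ± 16.3 CPM with OTS964 and 56.2 ± 19.2 CPM with DMSO. Leaving out the DLD1-labelled libraries left 1 gene past the threshold.

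**Figure D5:**
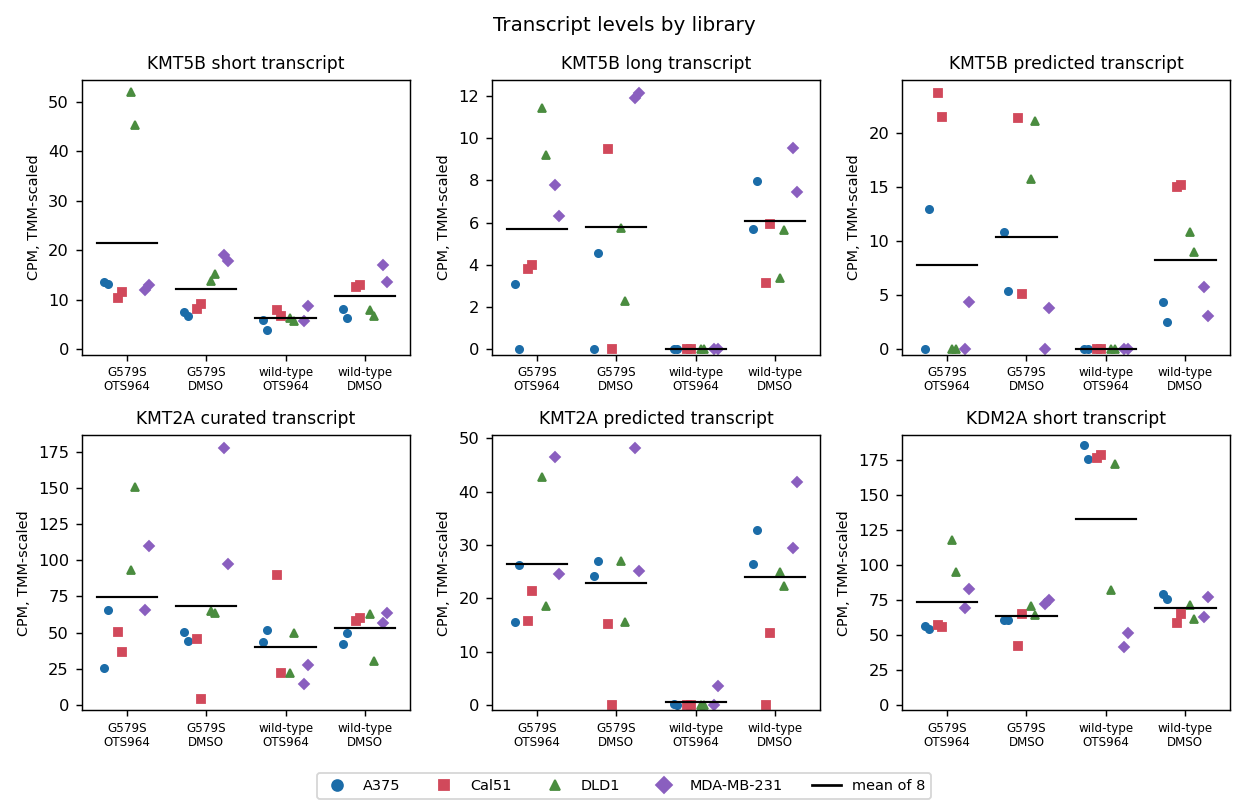
Level of single transcripts in each library (points, CPM scaled by TMM), by genotype and treatment, with the mean of 8 as a line. The long and 1 predicted transcript of KMT5B lie at 0 in all 8 wild-type OTS964 libraries and above 0 in all 8 wild-type DMSO libraries.

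The 34 genes are longer than most, with a median gene length of 63734 bases, against 30294 over all genes tested, and a median of 22 exons, against 9. Length did not order the response among them: Spearman's rho between gene length and log2 fold change in wild-type cells was 0.00 over the 34 genes and -0.24 over all, as a description of genes that share libraries. The rho with the number of exons was -0.21 over the 34 genes and -0.13 over all. Among genes of over 100 kb, 8 of 9 members were called lower, against 36.4% of all such genes. Of those between 50 and 100 kb it was 8 of 12, against 40.7%, and of those between 10 and 50 kb 7 of 11, against 33.3%. Both members under 10 kb were lower, with a median of -3.17, against 17.3% of all such genes.

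Genes that work with these enzymes are given as counts, beside 31.8% of all genes called lower and 27.1% higher in wild-type cells with OTS964. Of 12 COMPASS and MLL complex subunits 6 were lower and 1 higher (median log2 fold change -0.75). RBBP5 fell by 2.17, WDR82 by 1.71, NCOA6 by 1.42 and PAXIP1 by 1.33. Of 19 other SET-domain methyltransferases with DOT1L, 12 were lower and 3 higher (median -1.04), the lowest being SETDB2 (-4.58), PRDM2 (-3.37), SMYD4 (-3.35) and EZH1 (-2.75). Of 9 tested subunits of PRC2, which methylates lysine 27, 5 were lower and 2 higher (median -1.38), among them EED (-4.15), AEBP2 (-1.70), JARID2 (-1.48) and SUZ12 (-1.42). Of 13 other JmjC proteins 8 were lower and 1 higher (median -1.32), with TYW5 (-5.23), HIF1AN (-2.11), HR (-1.97) and JMJD6 (-1.79). Of 18 partners of LSD1 and KDM2B 9 were lower and 4 higher (median -0.77), with PCGF1 (-4.89), RCOR2 (-2.92) and RCOR1 (-2.38), the corepressor subunit that holds LSD1 on chromatin. The 9 tested arginine methyltransferases went the other way in count, with 5 higher and 1 lower (median 0.26, a smaller value than the shift of -0.55 that library totals gave all genes). PRMT6 (1.23), PRMT1 (0.97) and CARM1 (0.90) were higher and PRMT9 (-2.10) lower.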

How the data were processed

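The authors deposited 1 table per library with estimated counts and TPM for 87398 transcripts, per the file headers; the estimated counts are not whole numbers. The deposited TPM values are normalized to transcript length and library total. The sources used here name no counting tool. GRCm38 and mm10, both mouse builds, appear in the submitters' processing notes, although the identifiers are human RefSeq. Of these, 42587 (48.73%) matched a gene symbol, 99.14% of curated and 20.33% of predicted coding ones, holding 87.56% of reads on average; the other 12.44% were not used. Reads on predicted transcripts were 8.97% to 9.46% in wild-type OTS964 libraries and 11.38% to 12.47% in wild-type DMSO libraries.

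Counts were summed per gene and rounded, then tested with edgeR 4.0.16 in R 4.3.3 (quasi-likelihood, robust, TMM, edgeR's low-count filter, 14318 genes, Benjamini-Hochberg, threshold 0.05). TMM factors averaged 0.768 ± 0.05 in wild-type OTS964, 1.121 ± 0.026 in wild-type DMSO, 1.037 ± 0.063 in G579S OTS964 and 1.124 ± 0.036 in G579S DMSO libraries (SD, n = 8). Responses across lines had the line as a block (11 residual degrees of freedom, 22 for the difference of genotypes), and comparisons within lines came from 1 fit of 16 groups (16). Standard errors were taken from the fold change and F statistic, so they are approximate. Alternatives were DESeq2 1.42.0, other scalings, filters and transcript sets, and leaving out libraries. Scripts were tested on simulated data. The named genes followed a rule: within each role the 2 largest changes of the same sign in all lines, the highest in TPM and those called in the less common direction, then the smallest adjusted p. The members and lists were chosen with earlier results of these data known. The floors of 3 counts cover counting error only. A listed 0 can stand beside many reads in the paired library, as for KMT2D in MDA-MB-231 wild-type OTS964 (0 and 332 reads), and the floors do not cover that. Sequences are from GENCODE on GRCh38.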

Additional observations from a re-analysis of the deposited data

Results flagged for a closer look

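The response to OTS964 differed between genotypes for 24 of 34 genes by the test of the difference itself, 23 of them positive for G579S minus wild-type (25.8% of all genes were). It differed between the wild-type lines for 8 of 34 genes (23.5%), a share no higher than the 26.7% over all genes. The adjusted p of that F test was 0.000114 for KMT5C, 0.00196 for KDM2A, 0.00587 for KDM5B, 0.00641 for SETD7, 0.0112 for SETD6 and 0.0126 for KDM6A. The response of DLD1 G579S differed from the mean of the other G579S lines for 6 genes (12.1% of all genes), a count that lay between 1 and 9 when 1 library was left out, with a log2 difference of 0.87 for KDM5A and -1.27 for KDM4B.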

How the results depend on the processing

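Under 8 alternatives the wild-type count of 27 lay between 22 and 30, and under 9 alternatives the difference of genotypes, 24, lay between 21 and 27. Leaving out 1 library gave 24 to 27 calls in wild-type cells, 0 to 2 in G579S cells, 23 to 25 for the difference, 14 to 20 between lines, 5 to 11 for the response between wild-type lines, 2 to 4 for transcript usage and 1 to 9 for DLD1 G579S against the other G579S lines. Within lines it gave 12 to 17, 14 to 17, 16 to 20 and 16 to 18 in wild-type A375, Cal51, DLD1 and MDA-MB-231, and 0 to 1, 0 to 9, 6 to 8 and 0 to 0 in G579S. Between genotypes under DMSO it gave 0 to 1, 0 to 11, 6 to 7 and 1 to 1. The count of 5 between wild-type lines came with MDA-MB-231 wild-type DMSO replicate 1 left out, the 0 in A375 without the second A375 G579S DMSO library, and the 6 in DLD1 G579S without its first OTS964 library.

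DESeq2 called 6 genes in G579S cells (edgeR 0), 12 for DLD1 G579S against the other lines (edgeR 6), 2 and 4 between genotypes in A375 and Cal51 (edgeR 1 and 2) and 1 in G579S A375 (edgeR 0). Curated transcripts alone gave 1 call in G579S cells, 3 for DLD1 G579S against the others, 0 between genotypes in MDA-MB-231 and 7 in DLD1 G579S. No low-count filter gave 3 for DLD1 G579S against the others. Transcript usage had 1 call without the libraries labelled DLD1 wild-type. Replicate numbers did not pair the samples (correlations of deviations from -0.055 to 0.102), and with a replicate block 5 genes differed between wild-type lines (8 without) and 2 for DLD1 G579S against the others (6 without). The cause of these changes was not tested.

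With library totals the wild-type log2 fold changes were -0.25 for KDM1A, -0.067 for SETD9, -0.42 for SETD3 and -0.31 for KDM2A, each positive with TMM. Calls in the higher direction were then 21.9% of all calls in wild-type cells, against 46% with TMM, 12.1% against 52% in G579S cells and 74.2% against 51.5% for the difference of genotypes. DESeq2 size factors gave 0.0026 for KDM5C and 0.0303 for SETD7, and the DESeq2 test 0.027 for SETD7. Without 1 library KDM1B lay between -0.64 and 0.15 and SETD7 between -0.128 and 0.0248. KDM1B held at most 2.27 CPM in wild-type cells, and SETD1B was at 0 in 1 library and at 247 or 234 reads in the other of 2 pairs, so changes in either gene were not detectable here.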
